A study of Rattus norvegicus with 12 samples.

Results

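Interferons are secreted signals that switch on a broad antiviral and immune gene programme, and 40 genes of that programme, with the 3 interferon-induced chemokines among them, were followed in rat liver RNA. A gene was taken into the set where a probe of the array carried its symbol, and its brightest probe over all arrays was used. Under that rule 31 of the 40 genes had a probe, out of 41012 distinct probes and 35561 distinct names on the array. Of the 31 measured genes, 15 were classed as targets mainly of interferon gamma (gamma-type, 16 listed), 15 as targets mainly of the type I interferons (23 listed), and Irf2 was placed in neither class. The classes come from general knowledge, and many of these genes respond to both kinds of interferon. No probe carried the symbol of Dhx58, Eif2ak2, Ifih1, Irf8, Irf9, Isg15, Oasl, Rsad2 or Xaf1, which are not in the counts below. All 31 measured genes were well above background in both RNAs of every comparison, so all 31 were tested in each.

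Liver RNA of Fischer 344 rats aged 12 weeks was hybridised to 12 long-oligonucleotide arrays, each read in 2 colours, in 6 direct comparisons of 2 arrays with the dyes swapped. The 6 RNAs came from untreated (intact) males, intact females, hypophysectomised males, hypophysectomised females, and hypophysectomised males given 1 or 2 injections of growth hormone (GH). Hypophysectomy removes the pituitary gland, and with it GH, which male rats release in pulses and female rats nearly continuously. The animals without GH treatment were pooled, 3 to 4 livers to a pool, with separate pools on both arrays of a comparison. The 1-injection RNA came from 4 livers in a single pool, collected 30, 60 or 90 min from the injection, and the 2-injection RNA a single pool of 5 livers with 3 or 4 h between injections. Each GH pool was used on both of its arrays, so its error holds no spread between GH-treated pools. The GH dose and the time from the second injection to killing are not given in the sources used here. Values below are log2 ratios, the RNA named first over the other, ± the SE from limma (n = 2 arrays), and a gene was called where the Benjamini-Hochberg adjusted p over all probes tested in that comparison was under 0.05. P-values measure the spread between arrays.

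Per array and colour, 58.4% to 71.1% of the probes were well above background and no spot was saturated. Precision is limited by the number of arrays. The hepatocyte markers (8 of 8 with a probe) were above background in every comparison. Markers of macrophages (12 of 16 with a probe) and of T and NK cells (17 of 18) were measurable too, so the liver RNA held RNA of immune cells. In such bulk RNA, fewer cells of a type and less RNA per cell cannot be told apart. B2m, the invariant light chain of class I MHC, had array values that followed the dye, from -1.21 and 1.28 in hypophysectomised over intact males to -0.38 and 0.38 after 2 injections, and it was called in none of the 6 comparisons.

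Interferon gamma acts through a receptor that activates the kinases Jak1 and Jak2, and its target promoters often carry GAS elements. Type I interferons act through another receptor, the kinases Jak1 and Tyk2 and a complex that holds Stat2 and Irf9 and binds ISRE elements. GH signals through Jak2 and mainly Stat5, and Stat5 dimers bind elements with the same core letters as GAS. Among the products, the p47 and guanylate-binding GTPases act against intracellular pathogens, the chemokines Cxcl9, Cxcl10 and Cxcl11 attract cells bearing Cxcr3, the Psmb and Tap proteins cut and carry peptides for class I MHC, and the Ifit, Oas and Mx proteins act on viral RNA or viral proteins.

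The promoters of 6 genes that carry the changes described below are shown first, since they differ in these elements. They run 5′ to 3′ on the gene's strand from 250 bases before the start site to 50 after it, 300 bases each, from the RefSeq promoters of rat assembly GRCr8. Capitals mark every match, on either strand, to the GAS letters TTCNNNGAA or to the ISRE letters, GAAA followed by any 2 bases and GAAA again, and matches of both kinds may overlap. They belong to Ifi47 (chr10:33798494-33798793, plus strand), Igtp (chr10:42874797-42875096, plus strand), Gbp2 (chr2:234005477-234005776, plus strand), Cxcl10 (chr14:15988816-15989115, plus strand), Ifit3 (chr1:241527076-241527375, plus strand) and Ubd (chr20:1392636-1392935, minus strand).
Ifi47: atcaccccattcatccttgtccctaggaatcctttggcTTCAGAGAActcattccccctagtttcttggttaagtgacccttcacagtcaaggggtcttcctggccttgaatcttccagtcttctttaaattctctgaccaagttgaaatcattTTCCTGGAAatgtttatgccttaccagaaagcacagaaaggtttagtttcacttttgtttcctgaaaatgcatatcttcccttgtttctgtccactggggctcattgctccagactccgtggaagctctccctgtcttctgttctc
Igtp: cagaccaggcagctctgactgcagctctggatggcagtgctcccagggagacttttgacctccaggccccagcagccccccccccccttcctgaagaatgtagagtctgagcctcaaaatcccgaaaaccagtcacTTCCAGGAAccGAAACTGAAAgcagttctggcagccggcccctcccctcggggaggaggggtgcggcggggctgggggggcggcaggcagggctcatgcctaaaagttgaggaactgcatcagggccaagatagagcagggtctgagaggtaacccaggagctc
Gbp2: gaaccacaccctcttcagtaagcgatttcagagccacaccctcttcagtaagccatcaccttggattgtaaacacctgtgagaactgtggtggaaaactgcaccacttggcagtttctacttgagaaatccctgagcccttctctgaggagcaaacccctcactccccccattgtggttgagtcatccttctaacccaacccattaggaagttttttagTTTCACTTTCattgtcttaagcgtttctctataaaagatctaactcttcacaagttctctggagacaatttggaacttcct
Cxcl10: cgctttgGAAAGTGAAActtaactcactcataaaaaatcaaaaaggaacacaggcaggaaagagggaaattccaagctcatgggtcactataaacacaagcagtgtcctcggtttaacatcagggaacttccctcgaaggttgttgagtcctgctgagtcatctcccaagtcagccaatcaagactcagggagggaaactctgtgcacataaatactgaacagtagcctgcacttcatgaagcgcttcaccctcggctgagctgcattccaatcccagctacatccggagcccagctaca
Ifit3: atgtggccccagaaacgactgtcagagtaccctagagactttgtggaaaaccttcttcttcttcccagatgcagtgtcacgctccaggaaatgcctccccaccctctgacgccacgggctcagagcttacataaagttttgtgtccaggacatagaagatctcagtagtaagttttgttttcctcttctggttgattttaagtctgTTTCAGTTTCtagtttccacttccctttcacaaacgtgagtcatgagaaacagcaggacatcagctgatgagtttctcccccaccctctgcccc
Ubd: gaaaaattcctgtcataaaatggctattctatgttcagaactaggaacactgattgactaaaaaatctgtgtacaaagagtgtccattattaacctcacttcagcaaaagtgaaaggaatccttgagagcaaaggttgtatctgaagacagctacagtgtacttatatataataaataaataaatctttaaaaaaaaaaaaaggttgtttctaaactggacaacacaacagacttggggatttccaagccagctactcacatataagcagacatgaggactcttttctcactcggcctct
The first base of a match, counted on the gene's strand from the start site, lay at -212 and -96 for the 2 GAS matches of Ifi47. Igtp had a GAS match at -114 and an ISRE match at -103. Single ISRE matches lay at -31 in Gbp2, at -243 in Cxcl10 and at -44 in Ifit3, and Ubd had neither. Of the 31 measured genes, 24 had a promoter in the RefSeq table. A GAS match was present in 9 of these 24 (37.5%) and in 8.87% of all 33469 promoters of this length. An ISRE match was present in 15 of the 24 (62.5%) and in 3.92% of all promoters, 19 of the 24 had a match of at least 1 kind, and 5 had matches of both. By class, GAS matches were in 6 of 15 gamma-type promoters and 3 of 9 type I promoters, and ISRE matches in 9 of 15 and 6 of 9. A match describes letters in this window and is not a measured binding site.

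After 2 GH injections, the interferon genes of hypophysectomised males were higher almost throughout: 25 of the 31 were called higher and none lower in the limma fit, with Ifi47, Gbp5, Cxcl9 and Cxcl10 each up by more than 3 on the log2 scale. Over all 28438 probes tested in this comparison, 30.8% were called, 15% as higher. The median log2 ratio of the 31 genes was 1.16, against -0.0093 over all probes tested, and 30 of the 31 log2 ratios were above 0, all but that of B2m at -0.0033. The count of 25 was 5 with each array centred on its median in place of the loess fit, a setting under which 0.264% of all probes were called.

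Among the GTPases, 5 of 6 were called higher. Ifi47, a p47 GTPase induced by interferon gamma, had log2 ratios of 4.19 and 4.25 on its 2 arrays, and was 18.7-fold higher in the fit (4.22 ± 0.06, limma adjusted p = 7.26e-08). It ranked 16 from the highest of the 28438 probes. Gbp5, a guanylate-binding protein that promotes inflammasome assembly, was at 3.62 and 3.84 (13.3-fold, 3.73 ± 0.14, limma adjusted p = 2.48e-06). Both arrays of both genes lay far above 0, and their SE was small beside the difference. Gbp2, a second guanylate-binding protein, was at 2.95 and 2.78 (2.86 ± 0.07). Igtp, a p47 GTPase of vacuole membranes, was at 2.40 and 2.04 (2.22 ± 0.05). Mx2, a dynamin-like antiviral GTPase, was at 2.25 and 2.18 (2.21 ± 0.08). These 3 genes were between 4.64-fold and 7.27-fold higher. Mx1, the related nuclear GTPase, was the GTPase not called, with 0.19 and 0.13 on its arrays (0.16 ± 0.07, limma adjusted p = 0.123).

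All 3 chemokines were called higher. Cxcl9, the chemokine most restricted to interferon gamma, had nearly equal values of 3.47 and 3.48 on its arrays (11.1-fold, 3.47 ± 0.14, limma adjusted p = 2.82e-06). Cxcl10, which both interferon classes induce, was at 3.25 and 3.21 (9.39-fold, 3.23 ± 0.10). Cxcl11 was lower in the order, with a log2 ratio of 2.02 ± 0.06. No array value of Cxcl9 or Cxcl10 after 2 injections came near 0.

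Of the 7 genes of antigen processing, 5 were called higher. Ubd, or FAT10, a ubiquitin-like protein that marks substrates for the proteasome, led with 1.71 ± 0.12. Tap1, a subunit of the peptide transporter, was at 1.23 ± 0.14 and its partner Tap2 at 0.58 ± 0.10. The immunoproteasome subunits differed among themselves, with Psmb10 at 1.16 ± 0.05, Psmb9 at 1.06 ± 0.18 and Psmb8 not called at 0.51 ± 0.17 (limma adjusted p = 0.0501).

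The antiviral effectors were higher in 9 of 10 cases, with a median log2 ratio of 0.88. Ifit3, a protein that binds viral RNA complexes, had 2.12 and 1.97 on its arrays (4.12-fold, 2.04 ± 0.07, limma adjusted p = 1.53e-06). Usp18, which removes Isg15 from proteins and damps type I receptor signalling, was at 2.04 ± 0.09, and the exonuclease Isg20 at 1.52 ± 0.06. Oas1, a sensor of double-stranded RNA, was at 1.07 ± 0.07 and Ifit2 at 1.00 ± 0.09. Ifitm3 and Ifit1 were at 0.77 and 0.74. The smallest called values of this group were 0.53 ± 0.14 for Tnfsf10, the death ligand TRAIL, and 0.43 ± 0.06 for the RNA-editing enzyme Adar. Bst2, or tetherin, which holds budding virus at the cell surface, was not called at 0.19 ± 0.13. Ddx58, the RNA sensor RIG-I, was called higher at 1.30 ± 0.18.

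The 4 transcription factors were split. Irf7, a factor of the type I response, was called higher at 1.65 ± 0.07 and Stat2 at 0.25 ± 0.06. Irf1, an early factor of the gamma response, was at 0.25 ± 0.09 (limma adjusted p = 0.0759) and Irf2, which opposes Irf1, at 0.18 ± 0.14, and neither was called.

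**Figure D1:**
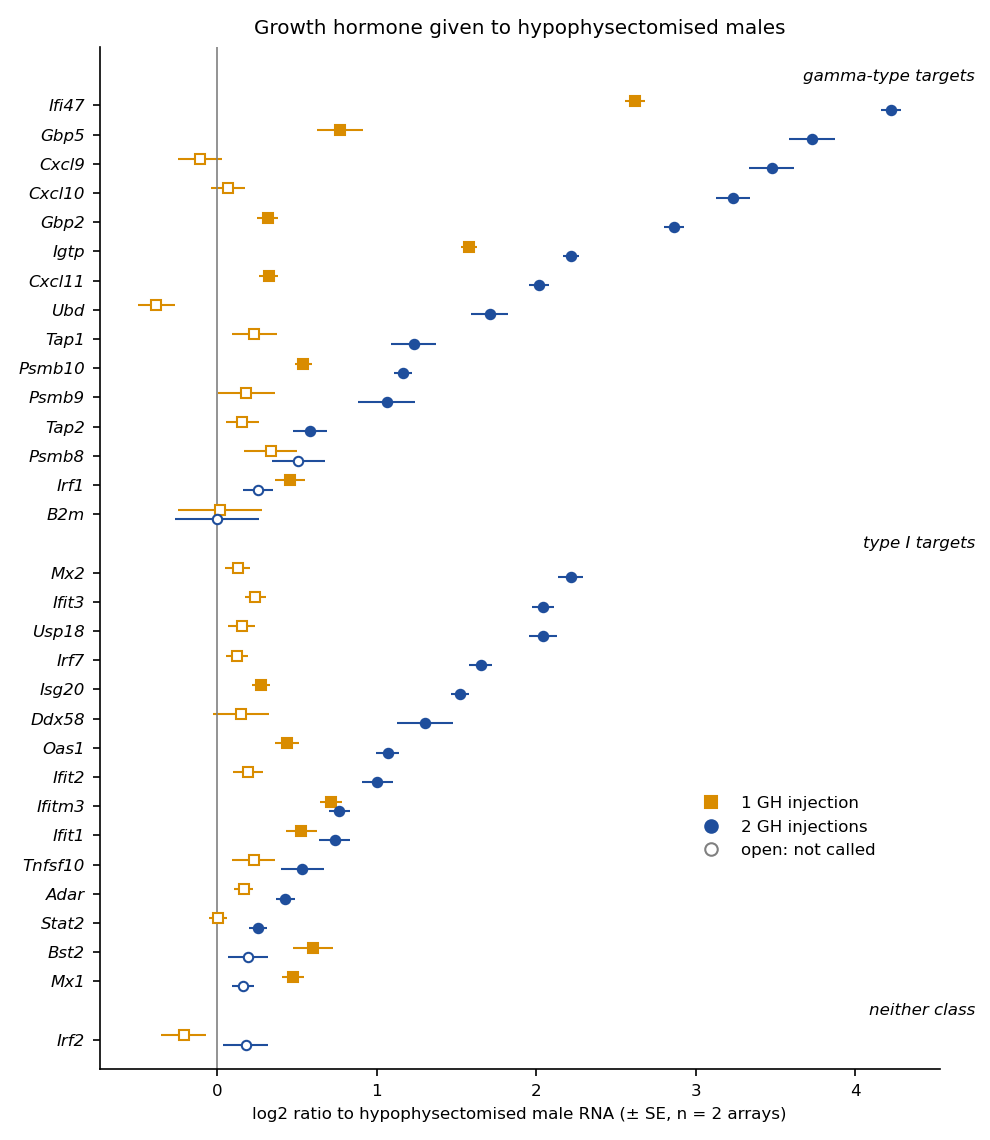
Log2 ratio to hypophysectomised male RNA (± SE, n = 2 arrays) of the 31 measured genes after 1 GH injection (squares) and 2 GH injections (circles), by class. Filled symbols were called in the limma fit, 13 genes after 1 injection and 25 after 2, all of them higher.

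After 1 injection, with livers taken within 90 min, the changes were smaller and led by a pair of p47 GTPases. Of the 31 genes, 13 were called higher and none lower, while 14.3% of 26359 probes were called, 7.49% as higher and 6.79% as lower. The median log2 ratio of the 31 genes was 0.23, against -0.00076 over all probes tested. Ifi47 was already 6.14-fold higher, with array values of 2.53 and 2.70 (2.62 ± 0.06, limma adjusted p = 1.8e-06), and ranked 30 of the 26359 probes. Igtp had 1.71 and 1.45 (2.99-fold, 1.58 ± 0.05, limma adjusted p = 4.89e-06). Gbp5 was at 0.59 and 0.95 (0.77 ± 0.14, limma adjusted p = 0.0109) and Ifitm3, which blocks fusion of virus with the cell, at 0.79 and 0.64 (0.71 ± 0.07, limma adjusted p = 0.000532). Both arrays of these 4 genes lay above 0. The 9 others called had log2 ratios from 0.27 to 0.60 and were Bst2, Psmb10, Ifit1, Mx1, Irf1, Oas1, Cxcl11, Gbp2 and Isg20.

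Several genes with large values after 2 injections were not called after 1. Cxcl9 was at -0.11 ± 0.14, Cxcl10 at 0.07 ± 0.10, Mx2 at 0.13 ± 0.08, Usp18 at 0.15 ± 0.09 and Irf7 at 0.12 ± 0.07. Ubd was at -0.15 and -0.62 on its arrays (-0.38 ± 0.12, limma adjusted p = 0.0662). The count of 13 was not stable. It was 4 when only the 1-injection arrays were fitted, 7 with Agilent's processed signals, 8 with the authors' deposited ratios and 0 with median centring. In the same order, 3.07%, 7.33%, 7.3% and 0% of all probes tested were called, against 14.3% in the fit above. The count of 13 also fell when either 1-injection array was left out. Gbp5 lost its call without either array, at 0.93 and 0.61, and Ifi47, Igtp and Ifitm3 stayed called without either array.

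Both GH comparisons were read against hypophysectomised male RNA on the same slide, and their difference was tested in the fit. The 1-injection livers were taken 30 to 90 min after GH, and the 2-injection livers 3 h or more after the first injection. A second injection and a longer time since the first therefore cannot be told apart. For 18 of the 31 genes the log2 ratio was called higher after 2 injections than after 1, and for none was it called lower. Of the 31 differences, 27 were above 0 and 4 below. Over all 26208 probes tested, 10.4% were called, 5.56% as higher and 4.82% as lower. With median centring none of the 31 genes was called, and none of all probes. Cxcl9 had the second largest difference of all probes (rank 2), at 3.58 ± 0.20 (limma adjusted p = 8.26e-05). Cxcl10 followed at 3.17 ± 0.15, Gbp5 at 2.96 ± 0.20, Gbp2 at 2.55 ± 0.09, Ubd and Mx2 both at 2.09, Usp18 at 1.89 ± 0.12 and Ifit3 at 1.80 ± 0.10. The 10 other called differences ran from 0.62 for Psmb10 to 1.69 for Cxcl11, and included Ifi47 at 1.61 ± 0.09 and Igtp at 0.64 ± 0.07. Ifitm3 had nearly equal values after 1 and 2 injections, with a difference of 0.05 ± 0.10 that was not called. Bst2, Mx1 and Irf1 were called after 1 injection and not after 2, but their differences of -0.41 ± 0.18, -0.32 ± 0.10 and -0.20 ± 0.13 were not called (limma adjusted p = 0.205, 0.0808 and 0.422).

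By class, 12 of 15 gamma-type and 13 of 15 type I genes were called higher after 2 injections, with medians of 1.71 and 1.00. After 1 injection the counts were 7 of 15 and 6 of 15, with medians of 0.31 and 0.23. The class medians were not tested against each other, since genes are not replicates. The 4 largest ratios after 2 injections, those of Ifi47, Gbp5, Cxcl9 and Cxcl10, were all of gamma-type genes.

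The wider pathway was read from lists of genes that are not in the set. Over all probes tested, 15% were called higher and 15.8% lower after 2 injections, and 7.49% higher and 6.79% lower after 1. Among ligands, receptors and signalling genes (17 tested of 26 listed), 7 were called higher and 3 lower after 2 injections, with a median of 0.03. The class II MHC activator Ciita was at 0.84 ± 0.08, the interferon gamma receptor chain Ifngr2 at 0.81 ± 0.06 and the kinase Jak2 at 0.74 ± 0.10. Of 29 other interferon targets tested, 19 were called higher and none lower, with a median of 0.44, led by the ubiquitin ligase Herc6 (2.64 ± 0.08), Parp9 (2.14 ± 0.08) and the p47 GTPase Irgm (1.87 ± 0.18). Of 13 MHC class I and II genes, 3 were called higher and none lower, none above RT1-S3 at 0.46 ± 0.13. The share called was 23.1%, under the 30.8% of all probes called in either direction. The other chemokines and receptors (22 tested) had 8 called higher and 2 lower and a median of 0.20, with the monocyte chemokine Ccl2 at 2.73 ± 0.07, the neutrophil chemokine Cxcl1 at 2.43 ± 0.35, Ccl7 at 1.44 ± 0.10 and Ccl3 at 1.31 ± 0.08. After 1 injection, 8 of the 29 other targets were higher, Irgm at 1.14 ± 0.18 among them, and none lower.

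Immune cell markers are given beside these counts. After 2 injections, none of 12 macrophage markers was called, and their summed signal was 111509 to 116439 against 110392 to 118757 in hypophysectomised males. Of 17 T and NK cell markers, Gzmb at 0.41 and Cd8a at 0.40 were called higher. After 1 injection, 7 macrophage markers were called higher and 1 lower, with a summed signal of 126647 to 127327 against 108600 to 115580 that did not overlap, and 3 T and NK cell markers were called higher. Over all probes tested, 30.8% were called after 2 injections and 14.3% after 1. The part of these cells in the 1-injection values was not tested.

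In intact rats, most interferon genes were lower in males than in females. Of the 31 genes, 17 were called lower and 1 higher, while 15.5% of 25714 probes were called, 7.42% as lower and 8.07% as higher. The median log2 ratio of the 31 genes was -0.33, against -0.0052 over all probes tested, and the class medians were -0.33 for gamma-type and -0.35 for type I genes. Ifi47 stood apart from the rest, with -3.34 and -3.53 on its arrays, 10.8-fold lower in males (-3.43 ± 0.06, limma adjusted p = 1.02e-07). It ranked 25 from the lowest of all probes tested.

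Ubd followed with -1.64 and -1.24 (2.71-fold lower in males, -1.44 ± 0.12, limma adjusted p = 0.000106). Tnfsf10 had -1.33 and -0.87 (-1.10 ± 0.14, limma adjusted p = 0.00115). Psmb10 had -0.99 and -0.77 (-0.88 ± 0.05) and Ifitm3 -0.99 and -0.75 (-0.87 ± 0.07). Every array value of these 4 genes was below 0. Bst2 had -0.84 and -0.89 (-0.86 ± 0.13) and the chemokine Cxcl11 -0.81 and -0.57 (-0.69 ± 0.06). The 10 other genes called lower had log2 ratios from -0.52 for Mx2 to -0.29 for Gbp2. They included Cxcl10 at -0.46, Irf1 at -0.50, Oas1 at -0.45 and Igtp at -0.33. Stat2 was the gene called higher in males, at 0.22 ± 0.06, and Cxcl9 was not called at 0.21 ± 0.14.

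The count of 18 fell to 1, Ifi47, with median centring, a setting under which 1.02% of all probes were called. It also fell when either of these arrays was left out, and Bst2 lost its call without replicate 2 at -0.76. Macrophage markers moved the same way, 8 of 12 lower and 1 higher in males, with summed signals of 93393 to 94071 against 108063 to 109377. Of 15 T and NK cell markers tested, 6 were lower in males, with summed signals of 4866 to 5120 against 6157 to 6443. The part of these cells in the sex difference was not tested. Over all probes tested, 7.42% were called lower in males and 8.07% higher. Among the genes outside the set, 9 of 29 other interferon targets were lower in males and 2 higher, with Rtp4, an antiviral chaperone, at -1.31 ± 0.19, Irgm at -0.95 ± 0.18 and the inflammatory caspase Casp4 higher in males at 1.04 ± 0.11. Of 16 ligand, receptor and signalling genes tested, 2 were higher and 3 lower in males, with a median of -0.04. The share called was 31.2%, against 15.5% of all probes in either direction. The double-stranded RNA receptor Tlr3 was at -1.01 ± 0.07 and Ciita at 0.40 ± 0.08.

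**Figure D2:**
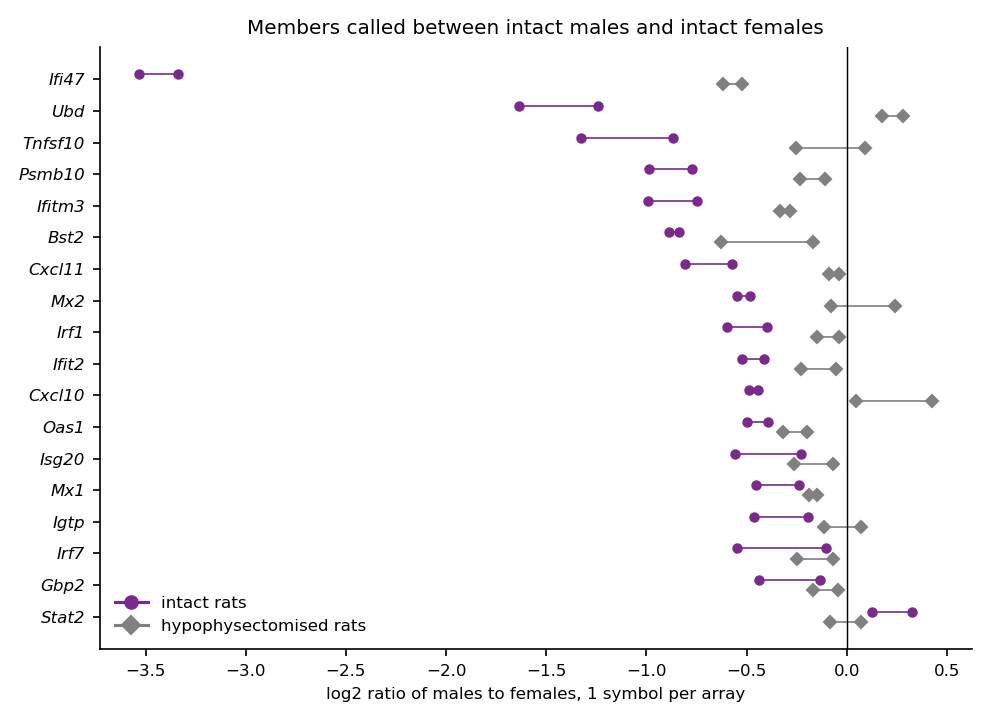
Log2 ratio of males to females on each of 2 arrays, joined by a line, for the 18 genes called between intact males and intact females. In intact rats (circles) 17 genes lay below 0 on both arrays, with Ifi47 near -3.4, and in hypophysectomised rats (diamonds) the values lay closer to 0.

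After removal of the pituitary, genes of the set were called in both directions, with Ubd the largest in males and Ifi47 in females. In males, 11 of the 31 genes were called higher and 6 lower, while 37.5% of 25984 probes were called, 19% as higher and 18.5% as lower. With Agilent's processed signals the split was 12 higher and 4 lower. In females, 6 were called higher and 11 lower, with 36.3% of 24320 probes called, 17.9% as higher and 18.5% as lower. The count of 6 lower in males and that of 6 higher in females are close to the share over all probes. The members' medians were 0.13 in males and -0.20 in females, against 0.0083 and 0.00072 over all probes. The male and female comparisons share no RNA.

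The same direction was called in both sexes for 11 genes. Ubd, Ifitm3, Isg20, Ifit3 and Gbp2 were higher in both, and Oas1, Ddx58, Tap2, Igtp, Usp18 and Stat2 lower in both, 11 of the 17 genes called in each sex. That is 35.5% of the 31 genes, while 24.7% of the 24156 probes tested in both sexes were called in the same direction in both. Ubd had 2.22 and 2.18 in males (4.6-fold, 2.20 ± 0.12, limma adjusted p = 9.17e-06), rank 37 from the highest of 25984 probes, and 0.57 and 0.80 in females (0.68 ± 0.12, limma adjusted p = 0.00282). Ifitm3 had 1.11 and 1.08 in males (1.10 ± 0.07) and 0.59 and 0.65 in females (0.62 ± 0.07). Isg20 had 0.87 and 1.06 in males (0.96 ± 0.06) and 0.77 and 0.85 in females (0.81 ± 0.06). All array values of these 3 genes were above 0. Oas1 was lower, with -0.78 and -0.44 in males (-0.61 ± 0.07) and -0.89 and -0.59 in females (-0.74 ± 0.07). Ddx58 had -0.84 and -0.40 in males (-0.62 ± 0.18) and -0.66 and -0.55 in females (-0.61 ± 0.18).

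Psmb10 and Mx2 were called in opposite directions, higher in males (0.39 ± 0.05 and 0.26 ± 0.08) and lower in females (-0.25 ± 0.05 and -0.39 ± 0.08). Tnfsf10 had 1.17 and 0.86 in males (1.02 ± 0.14, limma adjusted p = 0.000868) and -0.04 and 0.09 in females, where it was not called. Cxcl10 had 0.81 and 0.44 in males (0.62 ± 0.10) and was at -0.06 ± 0.10 in females, and Cxcl11 was at 0.57 ± 0.06 and -0.13 ± 0.06. Irf7 was called higher in males at 0.22 ± 0.07 although its arrays, -0.05 and 0.48, had opposite signs. Ifi47 went the other way: it was not called in males, with 0.17 and 0.13 on its arrays (0.15 ± 0.06), and was 7.44-fold lower in females, with -2.88 and -2.91 (-2.90 ± 0.06, limma adjusted p = 3.23e-07). Bst2 and Irf1 were also called lower in females, at -0.39 and -0.31, and Ifit1 higher at 0.39.

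The count of 17 in each sex was 1 with median centring, where 1.33% of all probes were called in males and 1.52% in females. In males it was 4 when only the 2 arrays of that comparison were fitted, where 10.3% of all probes were called. Oas1, Cxcl10 and Ddx58 were then no longer called, and Ddx58 also lost its call without replicate 1 at -0.23. In females the count of 17 also fell when either array was left out. There, Ddx58 lost its call without either array, and Ubd without replicate 2 at 0.48. Beside these counts, 7 of 15 T and NK cell markers were higher in males and 1 lower, with summed signals of 5719 to 6431 against 4993 to 5147, and 4 were higher and 1 lower in females, with 6878 to 7011 against 6164 to 6410. Endothelial markers were higher in 4 of 6 tested in males, with summed signals of 26642 to 27763 against 19972 to 25516, and in 4 of 5 in females, with 30315 to 33195 against 24467 to 27958. Of 12 macrophage markers, 3 were higher and 1 lower in each sex, with summed signals of 102684 to 103942 against 91489 to 93870 in males and 118651 to 130929 against 110708 to 114636 in females. Over all probes tested, 37.5% were called in males and 36.3% in females. Macrophage markers in both sexes, and T and NK cell markers in females, were called at 33.3%, under that share. None of the summed ranges overlapped between hypophysectomised and intact rats. The part of these cells in the changes was not tested. Outside the set, 5 of 29 other interferon targets were higher and 8 lower in males, and 6 higher and 10 lower in females. The counts called higher are close to the share over all probes, 19% in males and 17.9% in females. Samhd1, which breaks down nucleotides that viruses need, was at -0.76 ± 0.07 in males and -1.07 ± 0.07 in females.

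**Figure D3:**
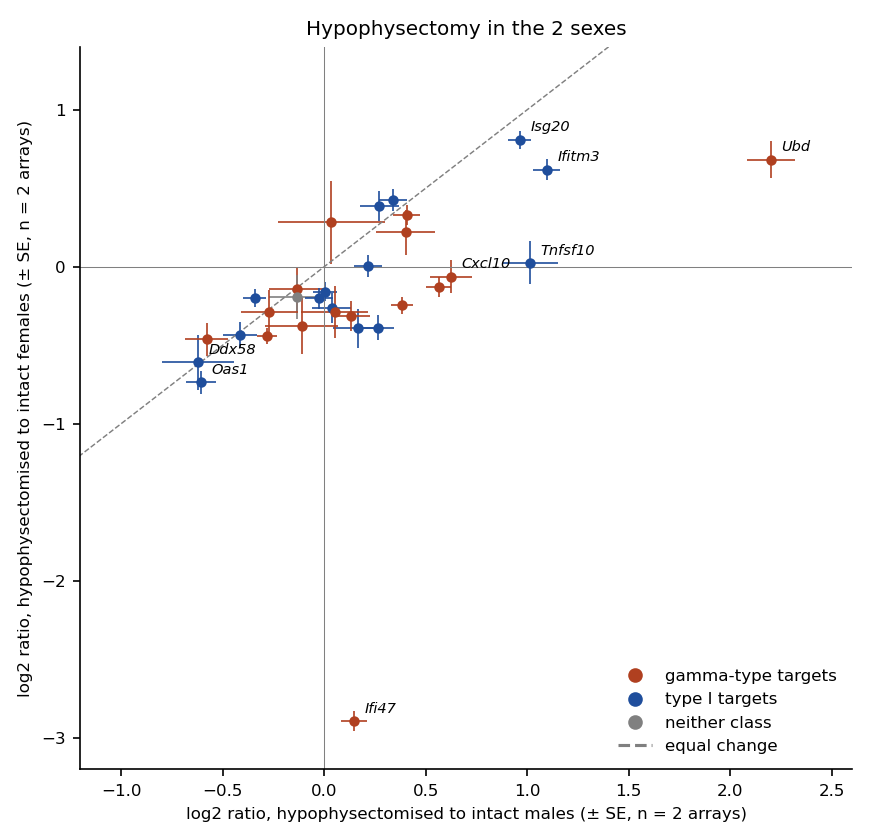
Log2 ratio of hypophysectomised to intact rats (± SE, n = 2 arrays) in males (horizontal axis) and females (vertical axis) for the 31 measured genes. Ifi47 lies near 0 in males and at -2.90 in females, Ubd at 2.20 and 0.68, and genes on the dashed line would have changed equally.

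The difference between the sexes in the response to hypophysectomy was tested as the mean of its 2 direct estimates, hypophysectomy in males minus females and the male to female ratio after minus before. Of the 31 genes, 11 were called as more positive in males and none as less positive. Over all 23859 probes tested, 13.5% were called, 6.48% as more positive in males and 7.01% as less positive. Of the 31 differences, 25 were above 0 and 6 below. With median centring 1 of the 31 genes was called, and 0.495% of all probes. Ifi47 had a difference of 2.95 ± 0.06 (limma adjusted p = 3.2e-07), rank 19 of 23859. Ubd had 1.59 ± 0.12 (limma adjusted p = 9.29e-05), Tnfsf10 1.00 ± 0.14, Cxcl10 0.69 ± 0.10, Psmb10 0.67 ± 0.05, Cxcl11 0.66 ± 0.06 and Mx2 0.62 ± 0.08. Ifitm3, Bst2, Irf1 and Igtp had called differences from 0.23 to 0.52. This contrast shares RNA with the sex comparison above, so both are views of the same 4 RNAs. Around the loop of these 4 RNAs, the ratios of the 31 genes should sum to 0, and they missed it by a median of 0.05 and at most 0.18.

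After hypophysectomy the sexes were close. Of the 31 genes, 1 was called between hypophysectomised males and females, against 0.949% of 26038 probes in either direction and 0.419% as lower in males, and 23 of the 31 log2 ratios were below 0, with a median of -0.09. That gene was Ifi47, still lower in males with -0.62 and -0.53 on its arrays (-0.57 ± 0.06, limma adjusted p = 0.00948). It was not called without either array, with only these 2 arrays, with Agilent's processed signals, with the deposited ratios or with median centring. The largest ratios not called were -0.40 ± 0.13 for Bst2 and -0.31 ± 0.07 for Ifitm3. Macrophage markers were lower in these males in 4 of 12 cases and higher in none.

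The levels of Ifi47 in all 6 RNAs follow from the channels of the 12 arrays, as log2 signals. These signals were normalised by loess within arrays, and the mean intensity of both colours was then quantile-scaled between arrays. The levels were not tested, only ratios within an array. Intact females were at 13.75 to 13.95 in 4 channels, intact males at 9.77 to 10.42, hypophysectomised females at 10.51 to 11.01 and hypophysectomised males, in 8 channels, at 9.94 to 11.22 with a median of 10.19. The 1-injection pool was at 12.91 and 12.97 and the 2-injection pool at 15.22 and 15.42. The order from the lowest was therefore hypophysectomised and intact males, whose ranges overlapped, and hypophysectomised females, which overlapped with hypophysectomised males. Above them, without overlap, came 1 injection, intact females and 2 injections. The GH pools and intact females shared no array, so their order was not tested. Hypophysectomised males were at 10.37 and 10.27 on the 1-injection arrays and at 11.22 and 10.97 on the 2-injection arrays. Usp18 in these males was also higher on the 2-injection arrays, at 9.92 and 9.84 against 9.48 and 9.53. Cxcl9 was not, at 11.68 and 11.29 against 11.65 and 11.54. The difference between 2 injections and 1 takes this reference RNA as equal on both pairs of arrays, which was not tested. Ubd had another order than Ifi47. Intact males were lowest at 13.37 to 13.59 and intact females next at 14.76 to 15.01, hypophysectomised females (15.47 to 15.68) and the 1-injection pool (15.25 to 15.35) each overlapped with hypophysectomised males (15.19 to 15.87) but not with each other, and the 2-injection pool was highest at 16.86 to 17.20. Cxcl9 lay between 11.04 and 11.68 in every RNA but that of 2 injections, where it was at 14.77 and 15.15.

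**Figure D4:**
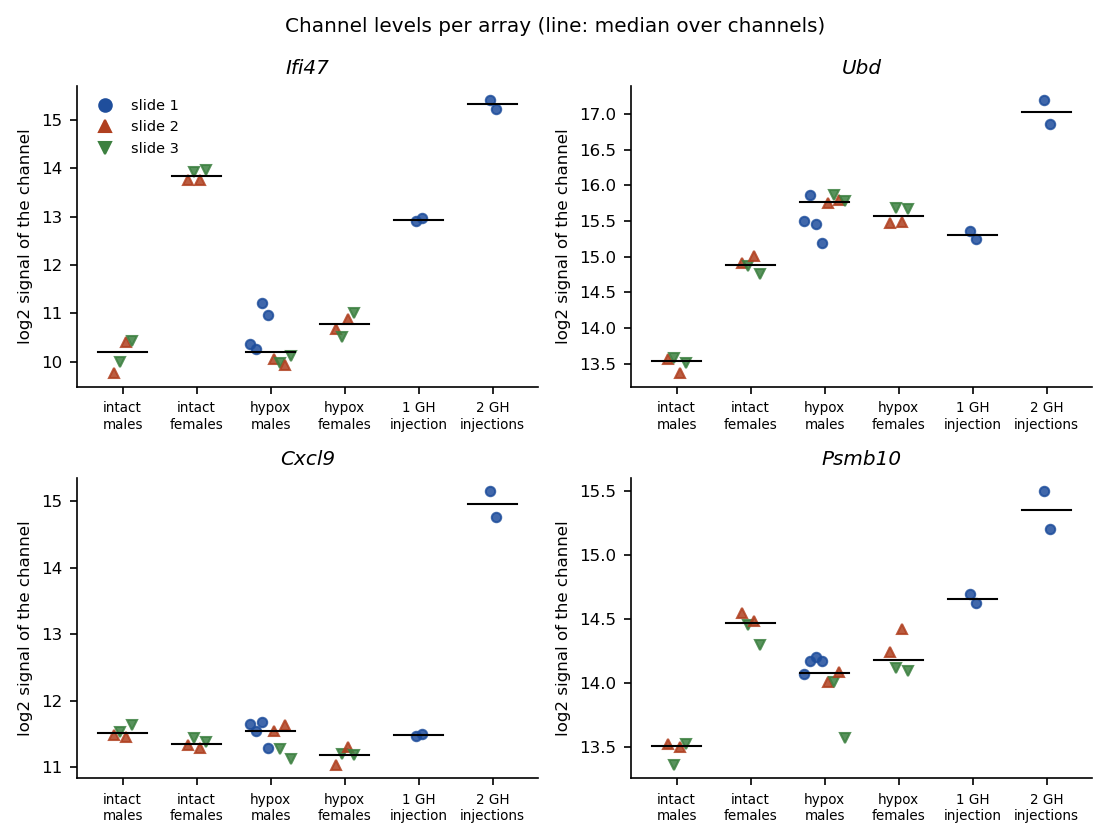
Log2 signal of each array channel for Ifi47, Ubd, Cxcl9 and Psmb10 in the 6 RNAs, with 1 symbol per channel, its shape and colour marking the slide, and a line at the median. Ifi47 is at 13.75 or more in intact females and after 2 injections, and at 11.22 or less in intact males and in both groups of hypophysectomised rats.

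All 4 GH arrays were on 1 slide, and the other 2 slides each held 1 array of each remaining comparison, so the pair of array values given above for those comparisons is also a pair of values from separate slides. Of the 31 genes, 6 had a second probe or more. For Bst2 and Ddx58 these had the same sign as the first in all 8 comparisons and contrasts, and for Ifit2 and Usp18 in 7 of 8. The further probes of Ifit1 had the same sign in 7 of 8 tested values, and their other values were not tested. For the further probes of B2m it was 17 of 24 values.

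For 4 of the genes without a probe of their symbol, a probe carried an older name and an accession that RefSeq pairs with the gene. These were chosen after the rule had failed to find them and stand outside its counts. Rsad2, or viperin, an antiviral enzyme, was at 3.01 and 2.92 after 2 injections (7.81-fold, 2.97 ± 0.06, limma adjusted p = 2.43e-07) and at 0.33 ± 0.06 after 1. Oasl was at 1.21 ± 0.09 and -0.07 ± 0.09, the kinase Eif2ak2 at 1.07 ± 0.05 and 0.73 ± 0.05, and the ISRE-binding factor Irf9 at 0.56 ± 0.06 and 0.26 ± 0.06. All 4 were called higher after 2 injections, and Eif2ak2, Rsad2 and Irf9 after 1. Between intact males and females, Rsad2 was at 0.05 ± 0.06, and after hypophysectomy it was called lower in both sexes, at -0.67 ± 0.06 in males and -0.42 ± 0.06 in females.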

How the data were processed

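Rat liver RNA, amplified and labelled with Alexa 555 or Alexa 647 per the labels' protocols, was read on 12 arrays of 45018 spots. The deposited scanner files give spot intensity, local background and flags for both colours, made by the authors with Feature Extraction 9.1.3.1 per the file headers. The authors' deposited value table holds log2 ratios of channel 2 to channel 1, with a normalisation that no label or header names. The direction and dye of each array follow the labels; 1 array label of the 1-injection comparison omits the hormone, and its title was used.

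Background was corrected with normexp (offset 50), ratios were normalised by loess within each array with the 1639 control spots at weight 0, outlier spots were left out, and spots of a probe were averaged. All 12 arrays were fitted with limma 3.58.1 in R 4.3.3, with 6 comparison coefficients and 1 for the dye. A probe was tested where 1 RNA or more passed the background flag on both arrays, and p-values were adjusted by Benjamini-Hochberg over all probes tested. Channel levels and summed marker signals used the same background correction and loess, followed by quantile scaling of the mean intensity of both colours between arrays. The fit was tested on simulated data. Per-array values are given for genes called with an absolute log2 ratio of at least 0.6, at most the 8 largest per comparison, with others added where a comparison turned on them. The genes and lists were chosen with earlier results of these data known. Alternatives changed the background correction, the normalisation, the signals, the filter, the probe of a gene, the arrays fitted, the dye coefficient and the blocks. The use of the deposited log2 ratios was chosen after seeing the data. A result on 1 gene of the pathway list is not reported here.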

Additional observations from a re-analysis of the deposited data

Results flagged for a closer look

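The effects of 2 injections and of 1 injection differed, by the contrast of both in the limma fit, for 18 of the 31 genes. Over all 26208 probes tested, 10.4% were called. With median centring none of the 31 genes was called, and none of all probes. The differences in log2 ratio were 3.58 for Cxcl9, 3.17 for Cxcl10, 2.96 for Gbp5, 2.55 for Gbp2, 2.09 for Ubd, 2.09 for Mx2, 1.89 for Usp18, 1.80 for Ifit3 and 1.69 for Cxcl11. They were 1.61 for Ifi47, 1.53 for Irf7, 1.25 for Isg20, 1.15 for Ddx58, 1.00 for Tap1, 0.81 for Ifit2, 0.64 for Igtp, 0.63 for Oas1 and 0.62 for Psmb10. Both effects were read against hypophysectomised male RNA, and each GH pool was a single pool, so the difference is one between these pools. The pools also differed in the time since the first injection, so the number of injections and that time cannot be told apart.

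The response to hypophysectomy differed between males and females, by the contrast of both, for 11 of the 31 genes. Over all 23859 probes tested, 13.5% were called. Most of the 11 calls were lost with median centring, under which 0.495% of all probes were called. The male minus female differences were 2.95 for Ifi47, 1.59 for Ubd, 1.00 for Tnfsf10, 0.69 for Cxcl10, 0.67 for Psmb10, 0.66 for Cxcl11 and 0.62 for Mx2. They were 0.52 for Ifitm3, 0.51 for Bst2, 0.42 for Irf1 and 0.23 for Igtp.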

How the results depend on the processing

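The order used here is intact males over females, hypophysectomised over intact males, hypophysectomised over intact females, hypophysectomised males over females, 1 injection, 2 injections, sex difference in the response, and 2 injections against 1. The counts of the 31 genes called were 18, 17, 17, 1, 13, 25, 11 and 18. With median centring in place of loess they were 1, 1, 1, 0, 0, 5, 1 and 0. Over all probes tested, 1.02%, 1.33%, 1.52%, 0.0269%, 0%, 0.264%, 0.495% and 0% were called under that setting, in the same order. There, 38 of 47 values of named genes lost their call. The cause was not tested. None of these 47 values changed sign under any alternative run. Agilent's processed signals gave 0 between hypophysectomised males and females and 7 after 1 injection, and the authors' deposited log2 ratios, chosen after seeing the data, gave 0 and 8. Without background correction, 2 genes were called between hypophysectomised males and females. With only a comparison's own 2 arrays, which leaves fewer residual degrees of freedom, the counts were 4 for hypophysectomised over intact males, 0 between hypophysectomised males and females, and 4 after 1 injection.

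Leaving out each array in turn gave 6 to 9, 12 to 18, 7 to 9, 0 to 0, 4 to 5, 21 to 23, 8 to 14 and 14 to 17, with a lone array assumed to vary like the others. A fit with the replicate number as a block gave 17, 16, 16, 1, 13, 25, 10 and 18. In the 4 comparisons without GH the number is also the slide, and residuals of same-numbered arrays correlated at -0.49 to 0.86 over 6 pairs, over 0.1 in 3. Over all 15 pairs they ran from -0.68 to 0.86, so not every pair was positive. The slide as a random block, no filter, the filter on both RNAs, the mean over probes and no dye coefficient left every count within 1.5 times. With 2 arrays a comparison, small ratios are limited in precision.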
